A study of Homo sapiens with 12 samples.

Results

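The axon guidance ligands and receptors of cultured human fibroblasts are described here across knockout and serum. Members were the protein-coding genes whose symbol starts with SEMA, PLXN, EPHA, EPHB, EFNA, EFNB, ROBO, SLIT, NTN, UNC5 or TENM and goes on as a numbered family member, together with NRP1, NRP2 and DCC, which gave 76 of the 60671 genes counted. They were 20 semaphorins, 9 plexins, 2 neuropilins, 9 ephrins, 14 Eph receptors, 11 netrins with DCC and the UNC5 receptors, 7 SLIT and ROBO genes and 4 teneurins. The ephrins include the read-through transcript EFNA4-EFNA3, and UNC50 and UNC5CL were left out because they are not netrin receptors.

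RNA-seq was done on BJ-5ta cells, a human fibroblast line immortalized with hTERT, in 4 groups of 3 libraries. Wild-type cells grew in RPMI with 10% serum (libraries 1 to 3) or were kept for 10 days at 0.1% serum (libraries 7 to 9), a treatment used to bring fibroblasts into quiescence. ΔLEO1 cells, in which LEO1, a subunit of the PAF1 transcription elongation complex, was cut with CRISPR/Cas9 guides to its first exons, were treated alike (libraries 4 to 6 at 10% serum and 10 to 12 at 0.1% serum). The ΔLEO1 cells are 1 clone, so the knockout and the particular clone cannot be told apart. All 4 groups share the hTERT background, and whether libraries of a group came from separate cultures is not given in the sources used here, so p-values measure only the spread between these libraries, which may be technical.

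Axon guidance genes encode secreted or membrane-bound cues and the receptors that read them. Semaphorins signal through plexins, with neuropilins as co-receptors for most secreted class 3 members. Ephrins, which are themselves tethered to membranes, bind Eph receptor tyrosine kinases and can signal in both directions, SLIT proteins bind ROBO receptors, netrins bind DCC and UNC5 receptors, and teneurins are large adhesion receptors that bind latrophilins across cell contacts. Most act on the cytoskeleton, and outside the nervous system the same genes act in vessel growth, tissue boundaries, migration and cell adhesion, in fibroblasts as well.

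The libraries held 26240632 to 45315560 counts on genes. Reads on the ERCC transcripts, synthetic RNAs added at 1 dilution to every sample, made up 0.625% to 1.45% of reads at 10% serum and 1.09% to 3.24% at 0.1% serum. LEO1 had 682 to 1001 counts per wild-type library and 23 to 55 per ΔLEO1 library. All 10 fibroblast markers exceeded 1 CPM in every group, and their summed level was 68689 to 99707 CPM. The summed levels of the other marker lists were low: 0.239 to 1.53 CPM for 5 epithelial genes, 4.77 to 25.7 CPM for 5 neuronal genes, mostly from SYT1, 2.01 to 5.52 CPM in wild-type and 0.400 to 0.644 CPM in ΔLEO1 libraries for 4 endothelial genes, and 0.995 to 1.70 CPM and 2.68 to 8.24 CPM for 4 immune genes, where PTPRC averaged 4.42 and 6.55 CPM in the 2 ΔLEO1 groups. Their part in the results below was not tested. The highest-numbered library of each group (3, 6, 9 and 12) stood apart: on the log2 CPM scale the tested members differed by a median of 0.31 to 0.38 between it and the mean of its group's other libraries, against 0.084 to 0.12 between those. The summed CPM of 6 proliferation genes moved with it, at 611, 608 and 186 in libraries 1 to 3, 682, 753 and 409 in libraries 4 to 6, 269, 251 and 418 in libraries 7 to 9, and 403, 391 and 555 in libraries 10 to 12. Its part in the results was not tested, and results that rest on these libraries are given with and without them.

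Fold changes are given on the ERCC scale unless stated, in which counts are divided by the ERCC reads of the library, so that a change in total mRNA is kept. ERCC-scaled counts are counts set to the same number of such reads in every library, and a value after ± is the SE of a log2 fold change or the SD of a level or share over 3 libraries. On this scale the median of all tested genes moved by -0.97 (log2) with low serum in wild-type cells, by -1.05 in ΔLEO1 cells, and by 0.35 and 0.27 between ΔLEO1 and wild-type cells in 10% and 0.1% serum. The RNA input of each library was not given, so a change of all mRNA and a difference in input cannot be told apart, and in bulk RNA fewer expressing cells and less RNA per cell cannot be told apart either. Values on a second scale, where library sizes come from TMM factors of the genes themselves (the gene scale), are therefore given beside them. Genes were tested with edgeR's quasi-likelihood test and called at a Benjamini-Hochberg adjusted p under 0.05, over 13236 genes above 1 CPM in at least 3 libraries.

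Of the 76 members, 50 passed the filter on low values and were tested. Another 20 had some counts but stayed below the filter, and 6 (SEMA5B, EPHA6, EPHA7, UNC5A, UNC5C and UNC5D) had no count in any library. A count of 0 allows up to 3 counts per library, and intervals of this kind cover counting error only. The genes below the filter were SEMA3E, SEMA3G, SEMA4D and SEMA6B, the plexins PLXNA4 and PLXNC1, EFNA1, EFNA2 and EFNA4-EFNA3, the Eph receptors EPHA1, EPHA3, EPHA8, EPHA10 and EPHB1, DCC, NTN1, NTN3 and NTN5, SLIT1 and TENM2. DCC, the classical netrin receptor, had at most 2 counts in a library. EFNA2 was not tested because it passed 1 CPM in too few libraries, and it had 30, 33 and 18 counts in libraries 10 to 12 against 0 to 2 counts in each of the other 9 libraries. It was named for this after its values were seen. Among tested members, TENM1 passed the filter only through ΔLEO1 libraries and SEMA3F and EFNB3 only through wild-type libraries. TENM4 passed it only through 0.1% serum libraries. These are the groups where they are high, so their p-values against the other groups add no separate support.

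Levels per length (RPKM) differed widely between families. NTN4, a secreted laminin-binding netrin, was the highest member with a mean of 162 RPKM over the 12 libraries, followed by PLXNB2 (59.9), SEMA5A (53.6) and NRP1 (35.5). In the remaining families the leading genes were SLIT2 (22.9 RPKM), EPHA2 (20.8 RPKM), EFNB2 (7.97 RPKM) and TENM3 (1.72 RPKM). Every family except the teneurins thus had a member above 5 RPKM in these fibroblasts.

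**Figure D1:**
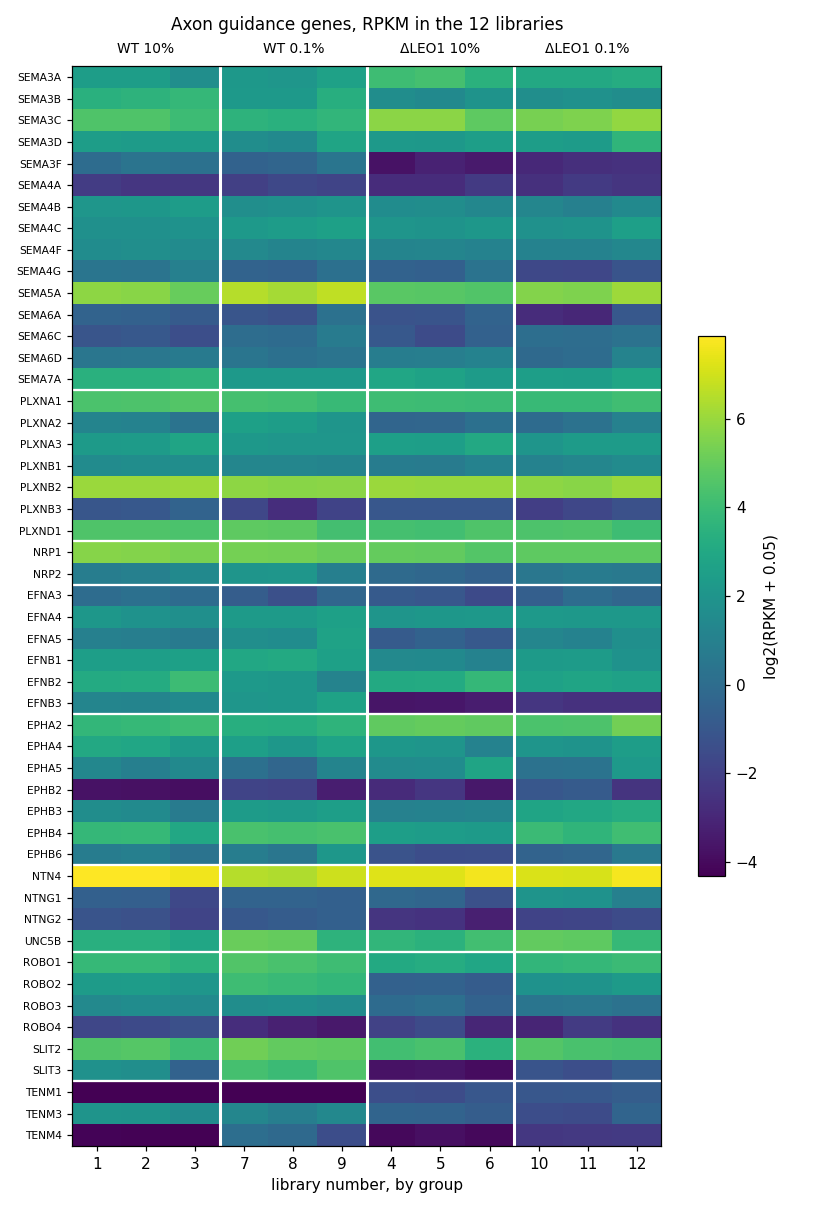
Level of the 50 tested members in each of the 12 libraries, as log2(RPKM + 0.05), with libraries in columns by group and genes in rows by family. NTN4 is the brightest row (mean 162 RPKM), TENM1 is dark in all 6 wild-type libraries (0 counts), and SLIT3, EFNB3 and SEMA3F are darker in all 6 ΔLEO1 libraries than in any wild-type library.

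Low serum in wild-type cells came with lower levels of most members on the ERCC scale, as it did for genes as a whole. Of 49 members tested, 23 fell (27.0% of all tested genes were called lower) and 3 rose (0.831% of all tested genes were called higher). The members' median log2 fold change was -1.09 beside -0.97 for all tested genes. The members that rose were TENM4, EPHB2 and SLIT3. The gene scale called 15 members higher and 18 lower, where 15.5% and 16.1% of all tested genes were called, and all 3 rises and 18 of the 23 falls were called on both scales. EPHA4, EPHA5, SEMA3D, SEMA3F and SEMA6D fell on the ERCC scale alone. In fits that each leave out 1 of the 12 libraries, the falls of EFNB2, EPHA5, NTN4, PLXNB3, ROBO4, SEMA3C and SEMA7A and the rise of TENM4 were called every time. The number of falls was 9 without library 1, 10 without library 2, 7 without library 7, 12 without library 9 and 18 to 27 without any of the others. No share of all tested genes is given for these fits, so the counts are not read as particular to the members.

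In ΔLEO1 cells, low serum was followed by 16 lower and 4 higher members of 50, against 36.4% and 0.793% of all tested genes, with a median log2 fold change of -0.78 beside -1.05 for all tested genes. SLIT3, TENM4, ROBO2 and EFNA5 rose. On the gene scale 18 members were higher and 3 lower (15.5% and 12.1% of all tested genes), so the balance between higher and lower turned with the scale. All 4 rises were called on both scales, while of the 16 falls only those of SEMA3A, SEMA4G and PLXNA3 were. Calls of SEMA3A, SEMA4G, SLIT3 and TENM4 were made in every fit without 1 library. The number of falls was 10 without library 2, 4 without library 4, 7 without library 5, 9 without library 7, 2 without library 10, 4 without library 11, 32 without library 12 and 13 to 18 without any of the others. Here too no share of all tested genes is given, so these counts are not read as particular to the members. Between the 2 genotypes, whose comparisons share no library, 15 calls had the same direction, or 57.7% of the 26 in wild-type and 75.0% of the 20 in ΔLEO1 cells. The matching share over all tested genes was not computed, so this overlap is not read as particular to the members.

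**Figure D2:**
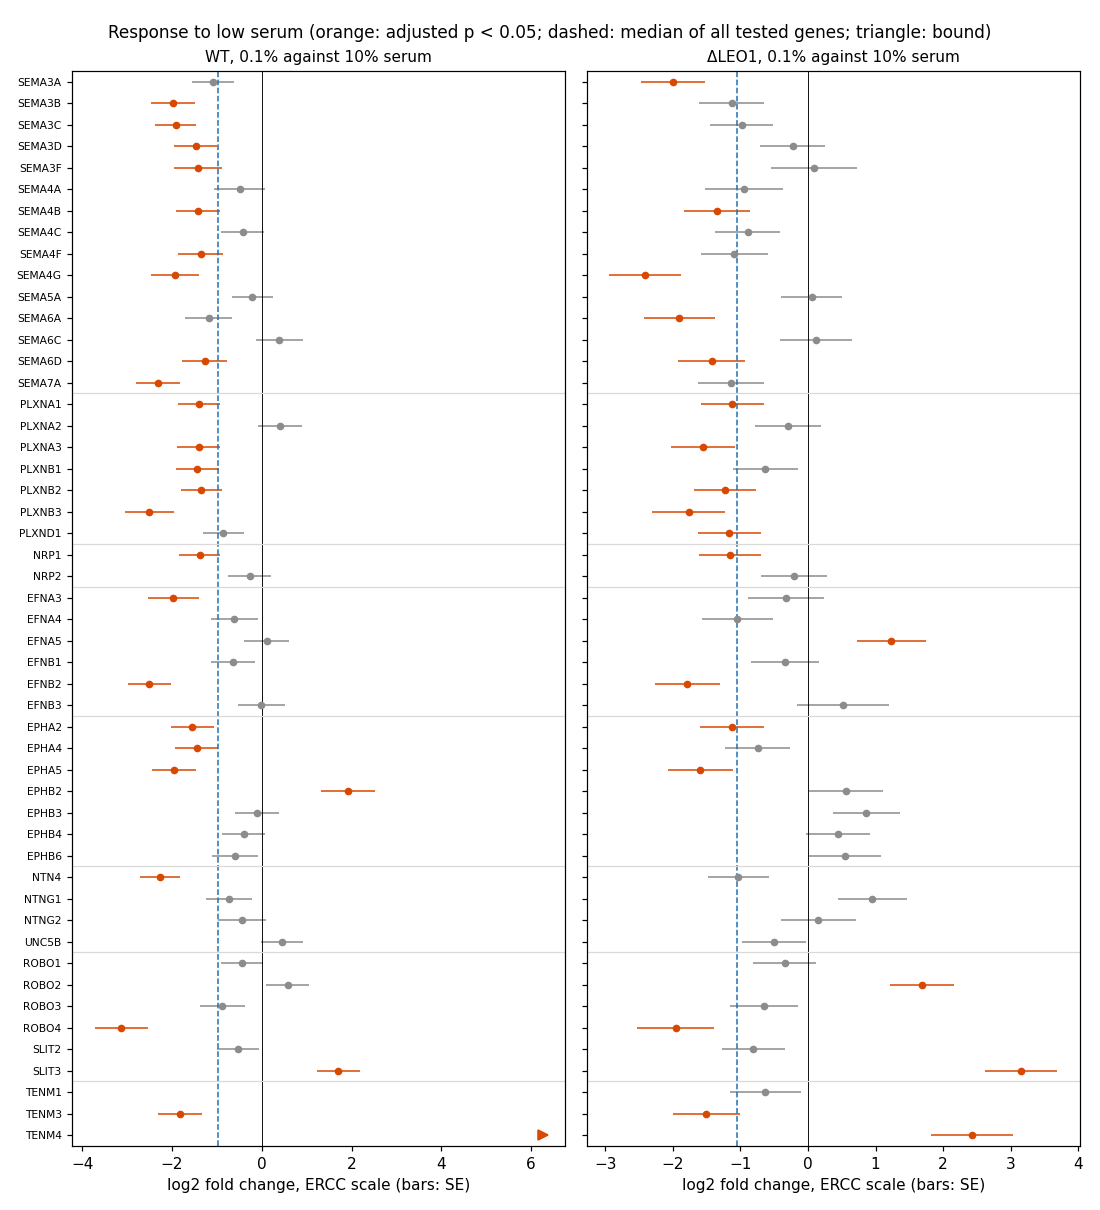
Log2 fold change of each tested member between 0.1% and 10% serum on the ERCC scale, in wild-type (left) and ΔLEO1 cells (right), with bars for SE, orange for adjusted p under 0.05, a dashed line at the median of all tested genes (-0.97 and -1.05) and a triangle for a lower bound. Most members lie around the dashed line, and SLIT3 lies right of 0 in both panels (1.704 and 3.16).

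Between the genotypes a larger share of members than of all genes was called. In 10% serum 6 members were higher and 7 lower in the ΔLEO1 clone, 26.0% of the 50 tested, against 8.01% of all tested genes (3.81% higher and 4.20% lower). In 0.1% serum the counts were again 6 higher and 7 lower, against 6.91% of all tested genes (3.49% higher and 3.41% lower). The members' median log2 fold change was -0.11 in 10% and 0.00 at 0.1% serum, beside 0.35 and 0.27 for all tested genes. Without the highest-numbered library of each group the counts on the ERCC scale were 3 higher and 28 lower for low serum in wild-type cells (0.999% and 63.4% of all tested genes), 2 and 36 in ΔLEO1 cells (0.658% and 92.0%), 5 and 11 for genotype at 10% serum (4.90% and 5.86%) and 3 and 13 at 0.1% serum (2.26% and 11.8%). No test was made of these shares, since the members were chosen with results known.

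Both serum conditions shared 8 calls of the same direction, 61.5% of the 13 in each. TENM1, SEMA3C and EPHA2 were higher, and SLIT3, EFNB3, SEMA3F, ROBO2 and TENM3 were lower. TENM4 was called in both with opposite signs. How many of all tested genes shared calls in this way was not computed, so the 61.5% is not read as particular to the members. By TMM of the genes, 4 members were higher and 25 lower at 10% serum (17.9% and 21.4% of all tested genes) and 8 higher and 19 lower at 0.1% serum (15.1% and 17.3%). All lower members called on the ERCC scale, 7 in each serum condition, were also made on the gene scale, and of the higher members 4 of 6 were in each.

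**Figure D3:**
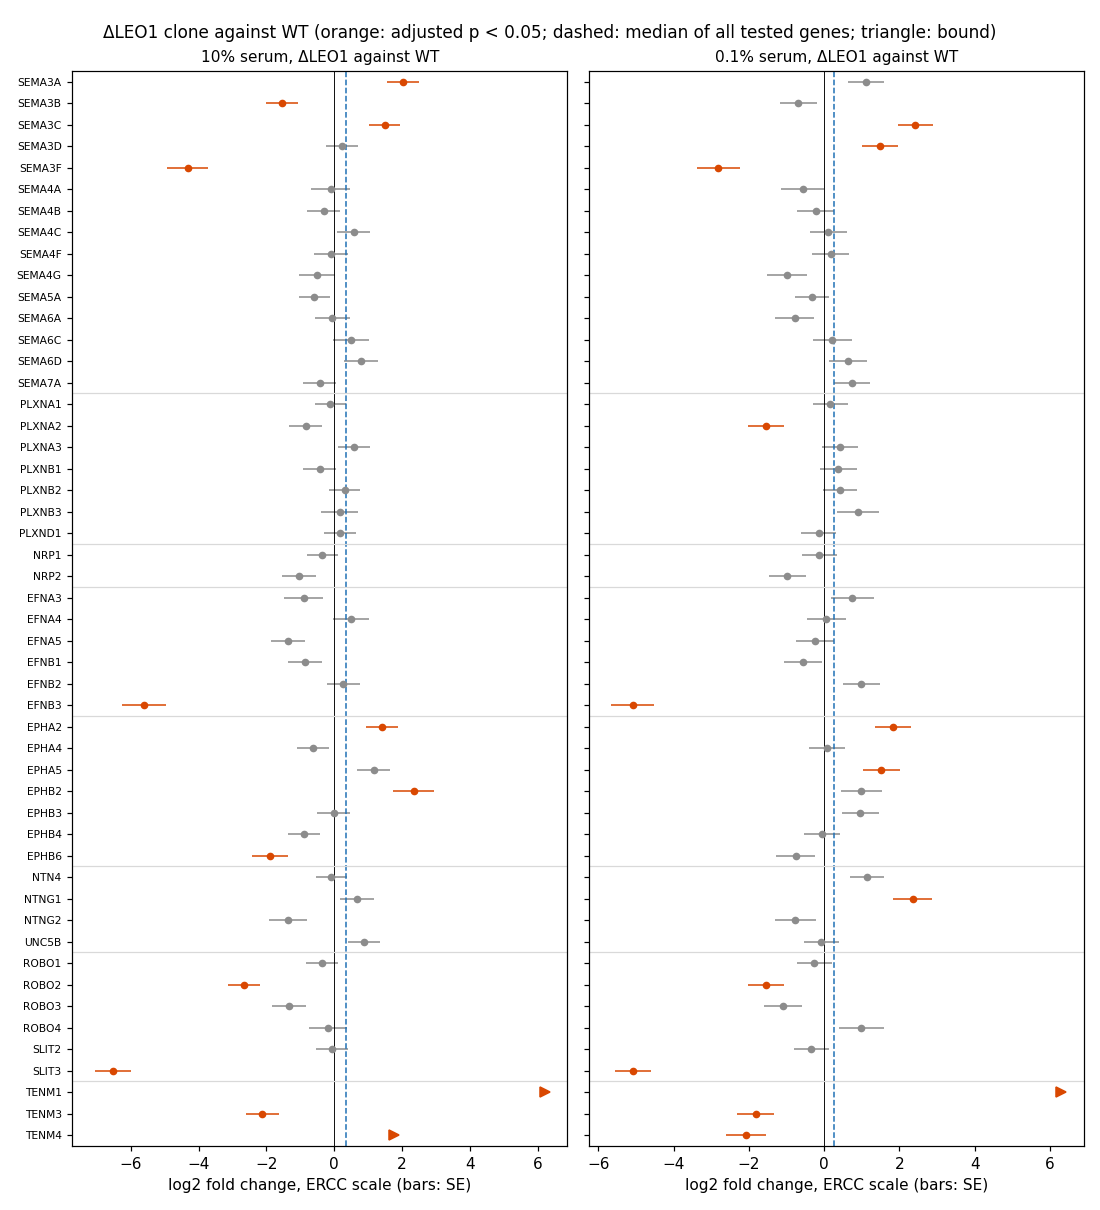
Log2 fold change of each tested member between ΔLEO1 and wild-type cells on the ERCC scale, at 10% serum (left) and 0.1% serum (right), with bars for SE, orange for adjusted p under 0.05, a dashed line at the median of all tested genes (0.35 and 0.27) and a triangle for a lower bound. SLIT3 (-6.52 and -5.07), EFNB3 (-5.62 and -5.08) and SEMA3F (-4.32 and -2.82) lie far to the left and TENM1 far to the right in both panels.

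SLIT3, a secreted ligand of ROBO receptors, had the widest fall in the clone at 10% serum. Wild-type libraries had ERCC-scaled counts of 6261, 4853 and 663 at 10% serum and 12799, 13534 and 12002 at 0.1% serum. In ΔLEO1 cells they were 57.1, 48.9 and 23.7 at 10% serum and 298, 143 and 707 at 0.1% serum. The wild-type and ΔLEO1 libraries did not overlap in either serum, and library 3 was by far the lowest of its group. The log2 fold change between genotypes was -6.52 ± 0.53 (adjusted p = 2.44e-22) at 10% serum and -5.07 ± 0.48 (adjusted p = 1.96e-16) at 0.1% serum. Both calls were kept in all 12 fits that each leave out 1 library.

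Low serum raised SLIT3 in both genotypes, against the direction of most genes. Its log2 fold change was 1.704 ± 0.48 (adjusted p = 0.00654) in wild-type and 3.16 ± 0.53 (adjusted p = 1.91e-06) in ΔLEO1 cells, and on the gene scale 2.88 (adjusted p = 0.000836) and 4.105 (adjusted p = 0.000953). The wild-type call was lost without library 3 (adjusted p = 0.0573), and without the highest-numbered library of each group the value was 1.24 (adjusted p = 0.00783). The low-serum libraries were all above the 10% serum libraries in each genotype. Whether the genotypes differed in this response was tested too and was not called (1.45 ± 0.72, adjusted p = 1.00).

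Of the other SLIT genes, SLIT2 carried nearly all SLIT RNA in the clone and SLIT1 was below the filter. SLIT2 had 23.4, 24.9 and 16.7 RPKM in wild-type cells at 10% serum, 37.1, 30.3 and 28.5 at 0.1% serum, and 18.1, 20.7 and 10.8 and 24.05, 20.8 and 19.5 in ΔLEO1 cells. None of its comparisons was called on either scale, with ERCC-scale log2 fold changes between genotypes of -0.070 ± 0.47 and -0.34 ± 0.47. SLIT3 made up 9.42% ± 4.89 (SD, n = 3) of summed SLIT RPKM in wild-type cells at 10% serum and 37.4% ± 5.81 at 0.1% serum. In ΔLEO1 cells its share was 0.142% ± 0.00355 and 1.98% ± 0.649.

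ROBO2, a receptor for SLIT proteins, was lower in the clone too. Its ERCC-scaled counts were 10748, 9240.2 and 4844 in wild-type cells at 10% serum and 13179, 15515 and 8254 at 0.1% serum. ΔLEO1 libraries had 1688, 1283 and 933 at 10% serum and 3180.3, 1911 and 7499 at 0.1% serum. Genotypes did not overlap in either serum, although library 12 came close to library 9. This gave a log2 fold change of -2.67 ± 0.48 (adjusted p = 5.18e-06) at 10% serum, kept without any 1 library, and -1.55 ± 0.47 (adjusted p = 0.023) at 0.1% serum, where the call was lost without library 5, 7, 8, 10 or 11 (highest adjusted p = 0.232, without library 10).

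ROBO2 rose with low serum in ΔLEO1 cells, with a log2 fold change of 1.69 ± 0.48 (adjusted p = 0.00884), and this call was lost without library 5 (adjusted p = 0.0528). Without the highest-numbered libraries the value was 0.78 (adjusted p = 0.0649). In wild-type cells its change was 0.57 ± 0.47 (adjusted p = 0.282) on the ERCC scale and 1.56 (adjusted p = 1.50e-05) on the gene scale. The share of ROBO2 in summed ROBO RPKM was 22.9% ± 0.485 and 39.2% ± 0.625 in wild-type cells, 10% before 0.1% serum, and 6.14% ± 0.2497 and 21.1% ± 1.497 in ΔLEO1 cells. The 3 libraries of a group lay close together in this share, the highest-numbered ones included.

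ROBO1, the most abundant ROBO receptor, was called in no comparison on the ERCC scale and averaged 13.3 ± 1.58 RPKM (SD, n = 3) and 20.4 ± 3.303 RPKM in wild-type and 8.301 ± 0.997 and 13.99 ± 1.36 RPKM in ΔLEO1 cells, 10% before 0.1% serum. With the gene scale ROBO1 was called lower in the clone (-0.69 and -0.53) and higher with low serum (0.54 and 0.69). ROBO3 was called in none on the ERCC scale, with -1.32 (adjusted p = 0.1) and -1.09 (adjusted p = 0.284) between genotypes, while the gene scale gave -1.69 (adjusted p = 6.80e-06) and -1.27 (adjusted p = 8.08e-05). The gene scale also called ROBO3 higher with low serum in ΔLEO1 cells (6.12 CPM at 10% and 8.95 CPM at 0.1% serum). ROBO4, better known from endothelium, fell with low serum in wild-type cells, with a log2 fold change of -3.13 ± 0.59 (adjusted p = 1.92e-05) and in ΔLEO1 cells -1.96 ± 0.57 (adjusted p = 0.0111). Its counts were low, 64 to 96 in wild-type libraries at 10% serum and 9 to 24 at 0.1% serum, and 16.9% of its exon bases overlap genes on the other strand. The ΔLEO1 call was lost without library 4, 5 or 10 (highest adjusted p = 0.137, without library 10).

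**Figure D4:**
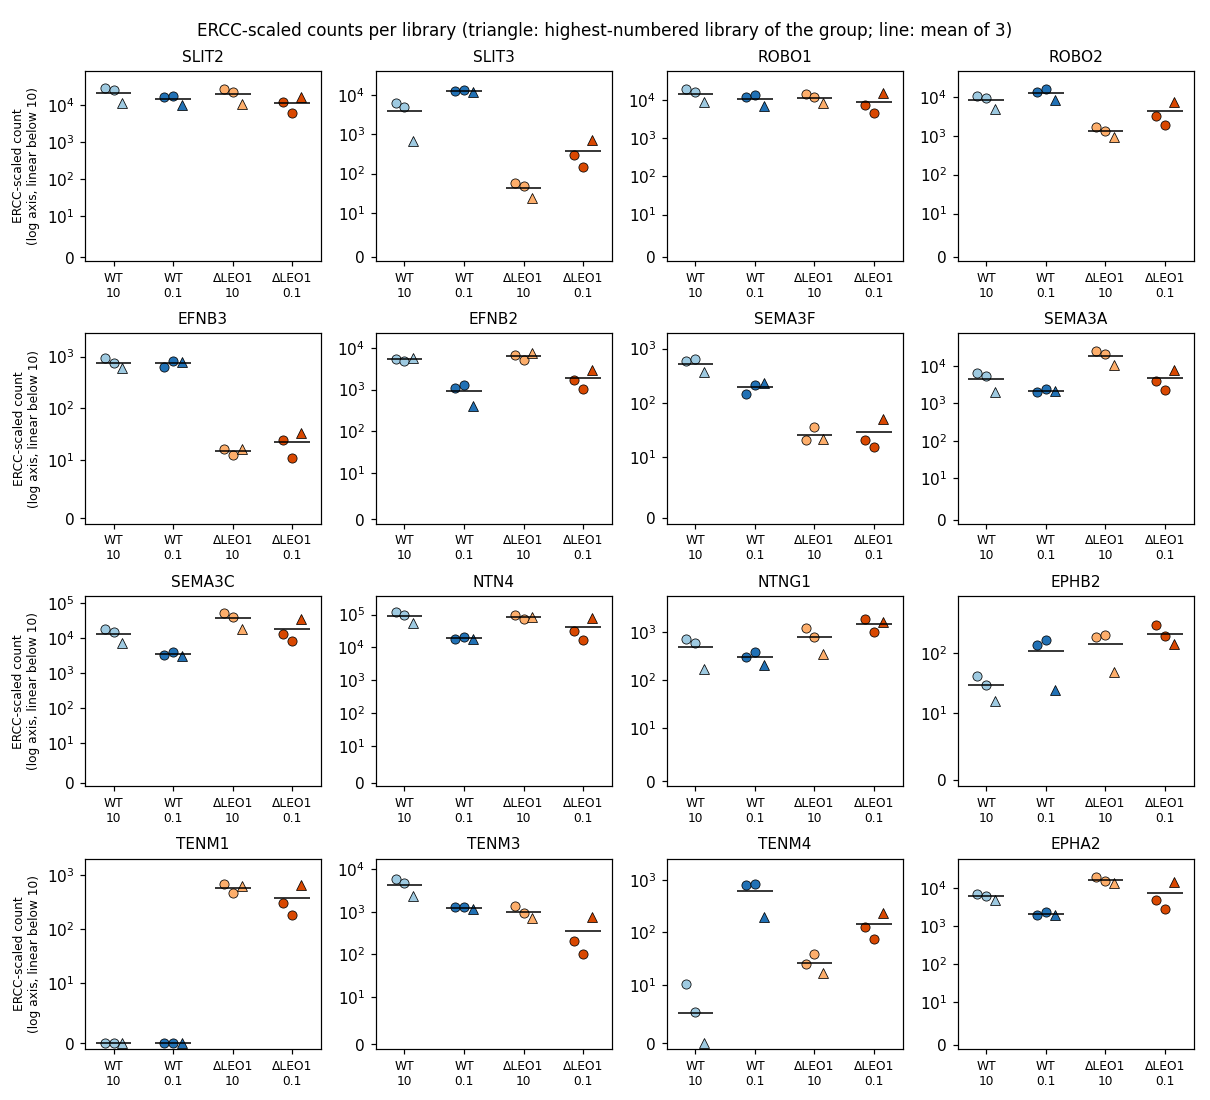
ERCC-scaled count of 16 members in each library, by group, on a log axis that is linear below 10, with triangles for the highest-numbered library of a group and a line at the mean of 3. SLIT3, EFNB3 and SEMA3F are lower in every ΔLEO1 library than in any wild-type library of the same serum, TENM1 has 0 in all 6 wild-type libraries, and TENM4 lies higher in 0.1% than at 10% serum in both genotypes.

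Class 3 semaphorins, the secreted ligands of neuropilin and plexin receptors, differed between genotypes in both directions. SEMA3F, a ligand of NRP2, had ERCC-scaled counts of 581, 633 and 374 in wild-type cells at 10% serum and 147, 216 and 232 at 0.1% serum. In ΔLEO1 cells it had 20.4, 36.002 and 21.4 and 21.2, 15.7 and 51.4, from no more than 20 counts in any library. Every ΔLEO1 library lay below every wild-type library. The log2 fold change was -4.32 ± 0.60 (adjusted p = 1.26e-09) at 10% serum and -2.82 ± 0.57 (adjusted p = 8.96e-05) at 0.1% serum, and both calls were kept in all 12 fits without 1 library. SEMA3F passed the filter through wild-type libraries alone, so these p-values and kept calls add no separate support to its counts.

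SEMA3B, also an NRP2 ligand, was lower in the clone at 10% serum, with 2822, 1789.8 and 2312 ERCC-scaled counts against 7623, 6988 and 5487 in wild-type cells. The groups did not overlap, and the log2 fold change was -1.54 ± 0.48 (adjusted p = 0.0254), with a call lost without library 1, 2, 4, 5, 6 or 7 (highest adjusted p = 0.25, without library 5). In 0.1% serum the value was -0.69 ± 0.48 (adjusted p = 0.698). SEMA3B fell with low serum in wild-type cells, with a log2 fold change of -1.98 ± 0.48 (adjusted p = 0.00144).

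SEMA3C went the other way and was the main class 3 semaphorin. ERCC-scaled counts were 17791, 14718 and 7055 in wild-type cells at 10% serum and 3397, 3975 and 3052 at 0.1% serum. The ΔLEO1 libraries had 52530.2, 39124 and 18658 at 10% serum and 13425, 8395 and 34125 at 0.1% serum. ΔLEO1 libraries were above wild-type libraries in both sera, and library 6 exceeded library 1 only slightly. Its log2 fold change was 1.48 ± 0.47 (adjusted p = 0.0264) at 10% serum, with a call lost without library 2, 3, 4, 5 or 7 (highest adjusted p = 0.318, without library 4), and 2.42 ± 0.47 (adjusted p = 3.15e-05) at 0.1% serum, kept without any 1 library.

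SEMA3A, the prototype repulsive cue and an NRP1 ligand, was higher in the clone at 10% serum, where it had 24826, 21172 and 10735 ERCC-scaled counts against 6358, 5443 and 2066. These libraries did not overlap, and the log2 fold change was 2.03 ± 0.47 (adjusted p = 0.000832), kept without any 1 library. In 0.1% serum the value was 1.12 ± 0.47 (adjusted p = 0.202). With low serum SEMA3A fell in ΔLEO1 cells, with a log2 fold change of -2.003 ± 0.47 (adjusted p = 0.00152), also on the gene scale (-0.94, adjusted p = 0.0136), and in wild-type cells the change was -1.09 ± 0.47 (adjusted p = 0.0652). SEMA3D was called higher in the clone at 0.1% serum (1.48 ± 0.48, adjusted p = 0.0384), but the groups overlapped, the gene scale gave 0.86 (adjusted p = 0.0917), and without the highest-numbered libraries the value was 0.51 (adjusted p = 0.448). This SEMA3D call was lost without library 2, 4, 5, 6, 7, 8 or 12 (highest adjusted p = 0.895, without library 12).

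As a share of summed class 3 RPKM, SEMA3C made up 46.8% ± 4.87 (SD, n = 3) in wild-type cells at 10% serum, 42.5% ± 6.82 at 0.1% serum, and 64.4% ± 5.51 and 71.2% ± 1.04 in ΔLEO1 cells. SEMA3B made up 27.8% ± 6.14 and 22.2% ± 3.996 in wild-type against 5.05% ± 2.43 and 4.93% ± 1.17 in ΔLEO1 cells. The ranges of the 2 genotypes did not overlap for either gene in either serum.

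Among the membrane-bound semaphorins, SEMA5A was by far the highest, with 54.8, 51.4 and 32.3 RPKM in wild-type and 26.8, 25.9 and 23.3 in ΔLEO1 cells at 10% serum. Its RPKM at 0.1% serum was 89.6, 74.8 and 102 in wild-type and 48.9, 45.5 and 67.5 in ΔLEO1 cells, above 10% serum without overlap in both genotypes. Its changes were not called on the ERCC scale (-0.58 and -0.32 between genotypes, each ± 0.46), and were -0.87 (adjusted p = 0.00446) and -0.71 (adjusted p = 0.0165) on the gene scale. Its low-serum change was -0.22 ± 0.46 (adjusted p = 0.666) and 0.051 ± 0.46 (adjusted p = 0.92) on the ERCC scale and 0.86 (adjusted p = 0.00703) and 1.03 (adjusted p = 0.00318) on the gene scale, wild-type first. SEMA7A, a GPI-anchored semaphorin that binds integrins and PLXNC1, fell with low serum in wild-type cells, with a log2 fold change of -2.31 ± 0.48 (adjusted p = 0.000188), with 5106, 4223 and 3166 ERCC-scaled counts at 10% serum against 809, 1046 and 659. Its libraries did not overlap, and in ΔLEO1 cells the change was -1.14 ± 0.48 (adjusted p = 0.0525). SEMA4G fell with low serum in both genotypes, with log2 fold changes of -1.94 ± 0.53 (adjusted p = 0.00494) and -2.41 ± 0.53 (adjusted p = 0.000702); 27.4% of its exon bases overlap genes on the other strand. Further falls were those of SEMA4B in both genotypes (-1.43 and -1.35), SEMA6D in both (-1.27 and -1.43), SEMA4F in wild-type (-1.37) and SEMA6A in ΔLEO1 cells (-1.904), of which both values of SEMA6D and the ΔLEO1 values of SEMA4B and SEMA6A were not called on the gene scale. SEMA4A, SEMA4C and SEMA6C were called in no comparison on the ERCC scale, while the gene scale called SEMA4A lower in the clone at 0.1% serum (-0.73), SEMA4C higher with low serum in wild-type cells (0.55) and SEMA6C higher with low serum in both genotypes (1.46 and 1.12). Among 15 tested semaphorins the gene scale called 2 higher and 7 lower in the clone at 10% serum, and 3 and 6 at 0.1% serum. The shares of all tested genes were 17.9% and 21.4%, and 15.1% and 17.3%. Not all of these semaphorins are named here.

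Of the plexins, the semaphorin receptors, 1 of 7 tested was called between genotypes on the ERCC scale, while the gene scale called PLXNA1, PLXNA2 and PLXNB1 lower at 10% serum (-0.49, -1.08 and -0.77) and PLXNA2 at 0.1% serum (-1.94). The summed plexin level was 121 ± 2.84 RPKM (SD, n = 3) in wild-type and 109 ± 3.71 RPKM in ΔLEO1 cells at 10% serum, and 108 ± 9.12 and 102 ± 6.32 RPKM at 0.1% serum. PLXNB2 alone made up 54.1% ± 0.486, 58.2% ± 2.41, 49.9% ± 4.56 and 55.9% ± 2.96 of these sums in the same order. The ERCC-scale call was PLXNA2, with 3881, 4531 and 2098 ERCC-scaled counts in wild-type and 653, 473 and 2493 in ΔLEO1 cells at 0.1% serum. Library 12 overlapped the wild-type range, the change was -1.54 ± 0.49 (adjusted p = 0.0302), and without the highest-numbered libraries it was -2.902 (adjusted p = 9.96e-10). This call was lost without library 2, 5, 6, 7, 8, 10 or 11 (highest adjusted p = 0.369, without library 10), and DESeq2 gave an adjusted p of 0.196.

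With low serum 5 of 7 tested plexins fell in each genotype, where 27.0% of all tested genes were called lower in wild-type and 36.4% in ΔLEO1 cells. PLXNB3 fell, with a log2 fold change of -2.51 ± 0.55 (adjusted p = 0.000347) in wild-type and -1.76 ± 0.54 (adjusted p = 0.0157) in ΔLEO1 cells, and 20.4% of its exon bases are shared with SRPK3 on the same strand. PLXNA1 (-1.400 and -1.13), PLXNA3 (-1.404 and -1.56) and PLXNB2 (-1.35 and -1.23) fell in both, PLXNB1 in wild-type (-1.44) and PLXND1 in ΔLEO1 cells (-1.17). On the gene scale the 5 falls in wild-type cells were called at -1.52 to -0.38, and of those in ΔLEO1 cells only that of PLXNA3 (-0.52) was.

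NRP1, the co-receptor for SEMA3A and for VEGF, was abundant in all groups, with 46.8 ± 4.21, 37.5 ± 2.81, 28.996 ± 3.88 and 28.8 ± 0.241 RPKM (SD, n = 3) in wild-type cells in 10% and 0.1% serum and ΔLEO1 cells in 10% and 0.1% serum. It fell with low serum in wild-type cells (-1.39 ± 0.46, adjusted p = 0.0202) and in ΔLEO1 cells (-1.16 ± 0.46, adjusted p = 0.0414), beside medians of -0.97 and -1.05 for all tested genes. On the gene scale the wild-type fall was called and the ΔLEO1 fall was not. That scale also called NRP1 lower in the clone in both sera. NRP2, the receptor of SEMA3B and SEMA3F, was called in no comparison on the ERCC scale. Its changes between genotypes were -1.04 ± 0.49 (adjusted p = 0.255) and -0.98 ± 0.49 (adjusted p = 0.37) on the ERCC scale and -1.48 (adjusted p = 0.000989) and -1.13 (adjusted p = 0.00632) on the gene scale, which also called it higher with low serum in ΔLEO1 cells (0.91).

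EFNB3, a transmembrane ephrin, was close to the detection floor in the clone. ERCC-scaled counts were 930.0, 745 and 597 in wild-type cells at 10% serum and 638, 828 and 778 at 0.1% serum. ΔLEO1 libraries had 16.3, 12.9 and 16.6 and 24.2, 11.05 and 33.4, from 4 to 16 counts. No ΔLEO1 library came near a wild-type library. This gave a log2 fold change of -5.62 ± 0.64 (adjusted p = 3.55e-14) at 10% serum and -5.08 ± 0.57 (adjusted p = 4.44e-13) at 0.1% serum, kept without any 1 library and on the gene scale (-5.92 and -5.303). EFNB3 passed the filter through wild-type libraries alone, so these p-values and kept calls add no separate support to its counts.

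EFNB2, another B ephrin, was called in no genotype comparison (0.27 ± 0.48, adjusted p = 0.795 and 0.99 ± 0.48, adjusted p = 0.339), and fell with low serum in wild-type cells, with a log2 fold change of -2.51 ± 0.48 (adjusted p = 3.70e-05) and in ΔLEO1 cells -1.78 ± 0.48 (adjusted p = 0.00588). Its ERCC-scaled counts were 5466, 4725 and 5703 and 1100.2, 1299 and 401 in wild-type and 6598, 5125 and 7419.5 and 1667, 1025 and 2870.5 in ΔLEO1 cells, with no overlap between sera in either genotype. By TMM of the genes, the wild-type fall was -1.702 (adjusted p = 0.00251) and the ΔLEO1 value -0.74 (adjusted p = 0.101), and 26.2% of its exon bases overlap a gene on the other strand. EFNB1 was called in no comparison on the ERCC scale, while the gene scale called it lower in the clone (-1.23 and -0.68) and higher with low serum in ΔLEO1 cells (0.84). EFNB3 thus made up 12.5% ± 1.66 (SD, n = 3) of B ephrin RPKM in wild-type cells at 10% serum and 31.5% ± 10.9 at 0.1% serum, against 0.298% ± 0.00551 and 1.11% ± 0.152 in ΔLEO1 cells.

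The GPI-anchored A ephrins were lower in level. EFNA5 had 1.93, 1.799 and 1.52 RPKM in wild-type and 0.506, 0.669 and 0.474 in ΔLEO1 cells at 10% serum, and 3.23, 3.0003 and 6.54 and 2.36, 2.04 and 3.35 at 0.1% serum. It rose with low serum in ΔLEO1 cells, with a log2 fold change of 1.23 ± 0.51 (adjusted p = 0.0484), a call made in 2 of the 12 fits that each leave out 1 library (highest adjusted p = 0.351, without library 12), and it was 0.23 (adjusted p = 0.584) without the highest-numbered libraries. On the ERCC scale the ΔLEO1 libraries of the 2 sera overlapped and on the CPM scale they did not. Between genotypes EFNA5 was not called at 10% serum (-1.37, adjusted p = 0.0916, edgeR's quasi-likelihood test). At 0.1% serum the value was -0.24 (adjusted p = 0.907). The gene scale called 4 of the 6 tested ephrins lower in the clone at 10% serum, beside 21.4% of all tested genes. EFNA3 fell with low serum in wild-type cells (-1.98 ± 0.57, adjusted p = 0.00747), and 44.7% of its exon bases are shared with the read-through transcript. EFNA4 was called in no comparison on the ERCC scale and as higher with low serum in wild-type cells on the gene scale (0.42, adjusted p = 0.0422).

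EPHA2, the leading Eph receptor here and one well known from epithelial and tumour cells, was higher in the clone in both sera. ERCC-scaled counts were 7115, 6261 and 4773 in wild-type and 19553, 15337 and 13118 in ΔLEO1 cells at 10% serum. In 0.1% serum they were 1912, 2386 and 1907 and 4692, 2728 and 14545. ΔLEO1 libraries were above wild-type libraries in both sera. The log2 fold change was 1.403 ± 0.47 (adjusted p = 0.0456) at 10% serum, a call made in 3 of 12 fits without 1 library (highest adjusted p = 0.234, without library 4), and 1.82 ± 0.47 (adjusted p = 0.00424) at 0.1% serum, a call lost without library 7 or 12 (highest adjusted p = 0.253, without library 12). On the gene scale both were called (1.03 and 1.38), and without the highest-numbered libraries the 0.1% serum value was 0.79 (adjusted p = 0.21).

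EPHA2 thereby made up 79.6% ± 2.49 (SD, n = 3) and 80.2% ± 0.865 of summed EphA RPKM in ΔLEO1 cells, against 61.8% ± 5.97 and 60.7% ± 3.88 in wild-type cells, 10% before 0.1% serum. It fell with low serum in both genotypes (-1.55 and -1.13). EPHA4, a receptor for both ephrin classes, fell with low serum in wild-type cells (-1.45 ± 0.48, adjusted p = 0.0206). EPHA5, mostly known from brain, was called lower with low serum in both genotypes (-1.95 and -1.596) and higher in the clone at 0.1% serum (1.52 ± 0.49, adjusted p = 0.0347). That last value came from library 12, with 594, 352 and 4071 ERCC-scaled counts in the 3 ΔLEO1 libraries against 497, 453 and 798, and it was -0.011 (adjusted p = 0.991) without the highest-numbered libraries and -0.31 without library 12 alone.

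EPHB2, a kinase for B ephrins, was low in level. It had 12, 11 and 9 counts in wild-type libraries at 10% serum and 97, 71 and 22 at 0.1% serum, and 45, 78 and 20 and 196, 209 and 56 in ΔLEO1 libraries. Libraries 3, 6, 9 and 12 were the lowest of their groups by ERCC-scaled counts, and library 9 overlapped the wild-type libraries at 10% serum. EPHB2 rose with low serum in wild-type cells, with a log2 fold change of 1.91 ± 0.60 (adjusted p = 0.0145), with a call lost without library 2, 7 or 8 (highest adjusted p = 0.112, without library 7), and was higher in the clone at 10% serum at 2.34 ± 0.61 (adjusted p = 0.00311), with a call lost without library 5 (adjusted p = 0.0683). By TMM of the genes, these were 2.79 (adjusted p = 0.0148) and 1.97 (adjusted p = 0.0578).

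EPHB6, a kinase-dead member, was lower in the clone at 10% serum, with 318, 198 and 188 ERCC-scaled counts against 1144, 1029.7 and 450.0 and a log2 fold change of -1.902 ± 0.53 (adjusted p = 0.00778). These libraries stayed apart, and the call was lost without library 1, 2, 5 or 6 (highest adjusted p = 0.109, without library 5). EPHB4, a receptor for EFNB2 and the main EphB gene, was called in no comparison on the ERCC scale, with 13.96, 14.3 and 7.93 RPKM in wild-type and 5.701, 5.34 and 4.89 in ΔLEO1 cells at 10% serum and 20.7, 18.96 and 20.7 and 15.6, 12.6 and 17.3 at 0.1% serum. On the gene scale it was lower in the clone at 10% serum (-1.19, adjusted p = 0.000459) and higher with low serum in both genotypes (0.65 and 1.45). EPHB3 was likewise called on the gene scale alone, with 0.96 and 1.87 for low serum.

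**Figure D5:**
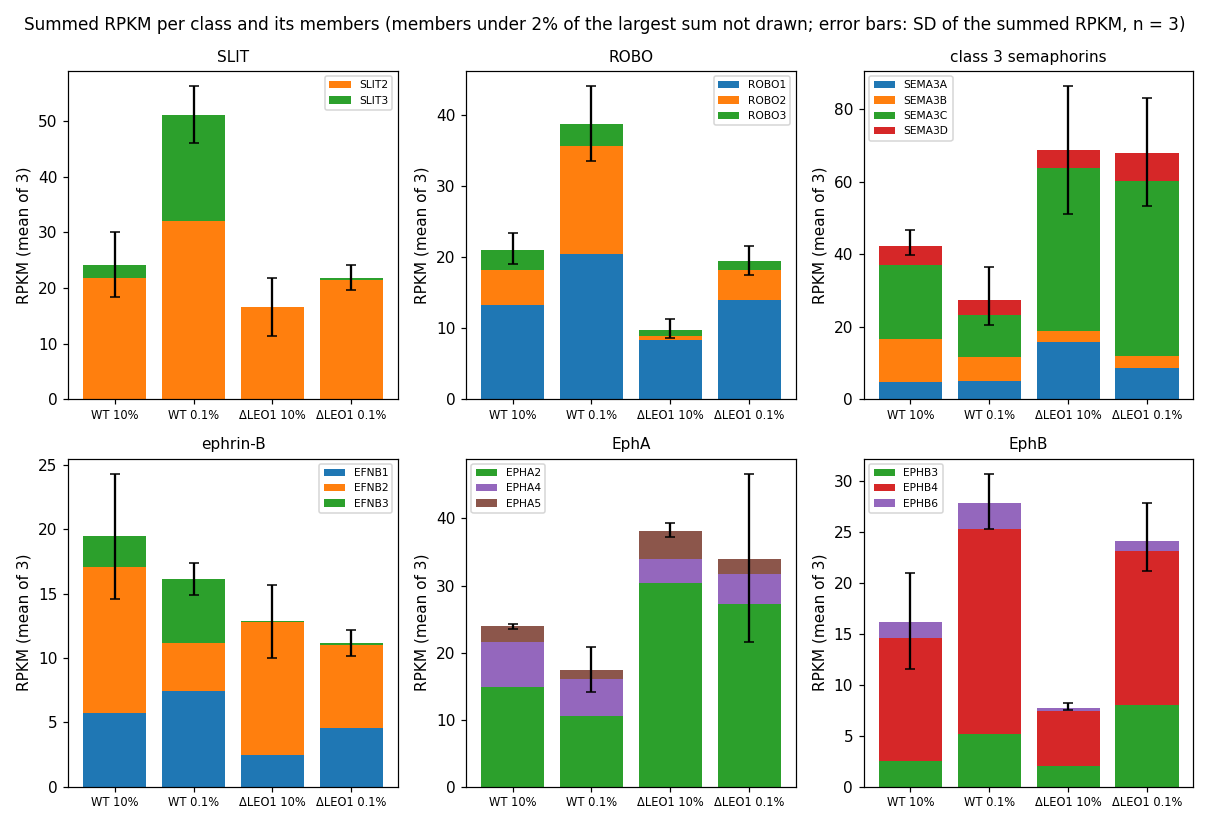
Summed RPKM per ligand or receptor class in the 4 groups, as stacked means of 3 libraries with error bars for the SD of the sum; members under 2% of the largest sum of a class are not drawn. In ΔLEO1 cells the SLIT3, EFNB3 and SEMA3B parts shrink (SLIT3 share 1.98% against 37.4% at 0.1% serum) and the SEMA3C and EPHA2 parts grow.

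Netrin expression was almost entirely NTN4, at 99.5% ± 0.137 (SD, n = 3) of summed netrin RPKM in wild-type cells at 10% serum and 97.6% to 99.4% in the other groups. NTN4 had 233, 228 and 197 RPKM in wild-type cells at 10% serum and 91.8, 84.2 and 120.3 at 0.1% serum, and 153, 152 and 199 and 146, 140.0 and 208 in ΔLEO1 cells. The wild-type sera did not overlap, and the ΔLEO1 sera did. NTN4 fell with low serum in wild-type cells, with a log2 fold change of -2.27 ± 0.45 (adjusted p = 7.09e-05), kept without any 1 library, while in ΔLEO1 cells the change was -1.03 ± 0.45 (adjusted p = 0.0571). Between genotypes the responses differed by 1.24 ± 0.64 (adjusted p = 1.00) on the ERCC scale and 1.14 (adjusted p = 0.0424) on the gene scale.

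NTNG1, a GPI-anchored netrin relative, was higher in the clone at 0.1% serum. It had 1863, 1016 and 1601 ERCC-scaled counts there against 298, 375 and 207 in wild-type cells, with no overlap, and its change was 2.35 ± 0.51 (adjusted p = 0.000364), kept without any 1 library. In 10% serum the value was 0.67 ± 0.51 (adjusted p = 0.574). NTNG2 was called in no comparison on the ERCC scale, while the gene scale called it lower in the clone (-1.69 and -1.06) and higher with low serum in ΔLEO1 cells (1.24). UNC5B, a receptor for netrins and the only UNC5 gene with counts, was called in none on the ERCC scale, at 10.4, 10.2 and 7.25 RPKM in wild-type cells at 10% serum and 33.9, 31.6 and 11.7 at 0.1% serum, where libraries 7 and 8 were high and library 9 was not. With the gene scale this serum change was 1.39 (adjusted p = 0.0198). In ΔLEO1 cells it had 12.9, 11.4 and 18.3 and 30.3, 28.7 and 14.1 RPKM.

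Teneurins were low in level. TENM1 had 0 counts in all 6 wild-type libraries. It had 163, 179 and 259 counts in ΔLEO1 libraries at 10% serum and 200, 196 and 251 at 0.1% serum, between 0.306 and 0.551 RPKM. Against a floor of 3 counts in each wild-type library, TENM1 was at least 73.3-fold higher in the clone at 10% serum (adjusted p = 3.20e-21) and at least 78.3-fold higher at 0.1% serum (adjusted p = 1.84e-21). TENM1 passed the filter through the ΔLEO1 libraries alone, so these p-values add no separate support to its counts. STAG2 on the other strand overlaps 1.87% of its exon bases. Its change with low serum in ΔLEO1 cells was -0.63 ± 0.53 (adjusted p = 0.28).

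TENM3, the main teneurin of wild-type cells, was lower in the clone. ERCC-scaled counts were 5949.8, 4824 and 2408 in wild-type and 1358, 967 and 703 in ΔLEO1 cells at 10% serum, and 1307, 1289.7 and 1143 and 204, 104 and 766 at 0.1% serum. No ΔLEO1 library reached a wild-type library of the same serum. Its log2 fold change was -2.12 ± 0.49 (adjusted p = 0.000757) at 10% serum, kept without any 1 library, and -1.81 ± 0.49 (adjusted p = 0.00726) at 0.1% serum, with a call lost without library 7 or 10 (highest adjusted p = 0.169, without library 10). It fell with low serum in wild-type (-1.82 ± 0.49, adjusted p = 0.00444) and ΔLEO1 cells (-1.51 ± 0.49, adjusted p = 0.0218).

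TENM4 was the single member whose response to serum was called different between genotypes, where 0.113% of all tested genes were called higher and 0.0604% lower. Wild-type libraries had 3, 2 and 0 counts at 10% serum and 562, 367 and 173 at 0.1% serum, library 9 being the lowest of these. ΔLEO1 libraries had 6, 15 and 7 and 85, 81 and 91. TENM4 was thus at or under the floor of 3 counts in wild-type cells at 10% serum and above it in all other groups, and at 0.1% serum the ΔLEO1 libraries were lower by CPM than each wild-type library. Against 3 counts in each 10% serum library it was at least 3.36-fold higher in the clone (adjusted p = 0.0294), a call lost without library 2, 3, 4 or 5 (highest adjusted p = 0.376, without library 3). Both groups of that comparison lay under the filter, at a mean of 0.044 CPM in wild-type and 0.21 CPM in ΔLEO1 cells. TENM4 passed the filter through the 0.1% serum libraries alone.

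In 0.1% serum TENM4 was lower in the clone (-2.07 ± 0.54, adjusted p = 0.00439), with a call lost without library 7, 8 or 10 (highest adjusted p = 0.0796, without library 7), and by ERCC-scaled counts library 12 overlapped library 9. It rose with low serum in ΔLEO1 cells, with a log2 fold change of 2.43 ± 0.61 (adjusted p = 0.00231), kept without any 1 library, and in wild-type cells it was at least 76.6-fold higher with low serum, against 3 counts in each library (adjusted p = 3.98e-16). The difference of the responses was -4.61 ± 1.04 (adjusted p = 0.00317) as ΔLEO1 minus wild-type, and since 1 group is at the floor it depends on the prior count of the fit. That call was lost without library 3 or 5 (highest adjusted p = 0.113, without library 5), DESeq2 gave an adjusted p of 0.1, and on the gene scale the value was -4.45 (adjusted p = 0.037). No member was called with a stronger positive difference by edgeR's quasi-likelihood test, 3 had an unadjusted p under 0.05, and DESeq2 called 0. By TMM of the genes, NTN4 (1.14), PLXNB1 (0.84), ROBO2 (1.13) and SEMA7A (1.26) were also called, all as higher values in ΔLEO1 cells (1.55% of all tested genes were called higher and 0.453% lower there).

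The 5′ flanks of SLIT3, SEMA3F, TENM1 and TENM4 are shown because these are the members with the widest genotype or serum differences for which a RefSeq sequence was at hand. Each is the 250 bases before the RefSeq start nearest to the annotated gene start, read on the strand of the gene (GRCh38.p14), with CG dinucleotides in capitals. SLIT3 is at chr5:169301140-169301389 on the minus strand, SEMA3F at chr3:50154808-50155057 on the plus strand, TENM1 at chrX:124963818-124964067 on the minus strand and TENM4 at chr11:79441031-79441280 on the minus strand.
SLIT3: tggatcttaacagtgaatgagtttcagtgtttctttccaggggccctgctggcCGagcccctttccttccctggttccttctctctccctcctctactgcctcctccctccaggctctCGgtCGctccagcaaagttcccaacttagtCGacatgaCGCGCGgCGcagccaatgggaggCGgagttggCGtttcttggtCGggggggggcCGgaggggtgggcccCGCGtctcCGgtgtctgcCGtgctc
SEMA3F: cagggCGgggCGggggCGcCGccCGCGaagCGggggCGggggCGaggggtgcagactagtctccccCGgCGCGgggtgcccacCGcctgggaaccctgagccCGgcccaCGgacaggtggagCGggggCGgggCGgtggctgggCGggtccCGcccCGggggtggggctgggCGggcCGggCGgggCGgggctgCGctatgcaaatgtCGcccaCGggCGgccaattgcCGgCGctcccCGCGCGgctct
TENM1: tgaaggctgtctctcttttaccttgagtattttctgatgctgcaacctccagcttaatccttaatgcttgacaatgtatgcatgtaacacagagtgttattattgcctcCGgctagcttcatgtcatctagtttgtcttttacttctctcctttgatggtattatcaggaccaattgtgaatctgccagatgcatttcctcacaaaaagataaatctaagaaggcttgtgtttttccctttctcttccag
TENM4: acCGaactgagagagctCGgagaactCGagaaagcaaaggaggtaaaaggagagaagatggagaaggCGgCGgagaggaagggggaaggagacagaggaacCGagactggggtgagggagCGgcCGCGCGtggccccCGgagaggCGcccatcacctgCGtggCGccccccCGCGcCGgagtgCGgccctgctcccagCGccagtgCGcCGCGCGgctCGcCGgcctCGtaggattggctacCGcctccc
SLIT3 held 16 CG dinucleotides, SEMA3F 34, TENM1 1 and TENM4 27, where the median of 22199 promoters of protein-coding genes was 16 and 96.8% of them held at least as many as TENM1. GC content was 62.8%, 82.0%, 39.2% and 69.2% in the same order. The motif GGGCGG, searched on both strands, was found in SEMA3F and in 53.7% of those promoters, and TATAAA, also on both strands, in none of the 4 and in 9.005% of those promoters. The 65 members with an entry had 102 promoters with a median of 17 CG dinucleotides. TENM1 has 2 entries, of which the nearest to the annotated gene start is shown. Whether transcription starts at these positions in the cells, and whether the flanks act as promoters there, was not tested. The comparison with other promoters is therefore one of sequence only.

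These genes lie apart in the genome. On GRCh38, SLIT3 (ENSG00000184347) spans 168661733 to 169301129 on chromosome 5, EFNB3 (ENSG00000108947) 7705202 to 7711378 on chromosome 17, SEMA3F (ENSG00000001617) 50155045 to 50189075 on chromosome 3, and TENM1 (ENSG00000009694) 124375903 to 124963817 on chromosome X. ROBO2 (ENSG00000185008) spans 75906695 to 77649964 on chromosome 3 and TENM3 (ENSG00000218336) 182143987 to 182803024 on chromosome 4. Among tested genes with a start within 1 Mb of that of SLIT3, 3 of 6 were higher in the clone at 10% serum and 1 at 0.1% serum, and 0 were lower by edgeR's quasi-likelihood test, 0 at an unadjusted p under 0.05 and 0 by DESeq2. Across all tested genes 3.81% and 3.49% were higher, 4.20% and 3.41% lower, and the medians were 0.35 and 0.27. Around EFNB3, 2 of 54 neighbours were lower in each serum, 1 was higher at 10% serum (XAF1, 1.78, adjusted p = 0.00608, named after its values were seen) and 0 at 0.1% serum (4 at an unadjusted p under 0.05, 1 by DESeq2), and their median log2 fold change was 0.37 and 0.28, and around SEMA3F the median of 35 neighbours was -0.07 and -0.04, with SEMA3B as the 1 neighbour called lower at 10% serum. The tested members had a median span of 60.4 kb, against 34.2 kb for 11882 tested protein-coding genes.

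Beyond the ligands and receptors, 3 lists of genes of the same pathways were described by counts. Co-receptors and adhesion partners had 20 tested genes, cytoskeletal effectors 35 and proteases that cleave guidance proteins 9. With low serum 10, 20 and 2 of them fell in wild-type and 12, 20 and 3 in ΔLEO1 cells, beside 27.0% and 36.4% of all tested genes. By edgeR's quasi-likelihood test 0 rose in either genotype, 0 had an unadjusted p under 0.05 in that direction, and DESeq2 called 1 cytoskeletal gene higher in ΔLEO1 cells. The gene scale called 2, 5 and 1 higher and 8, 15 and 2 lower in wild-type cells, beside 15.5% and 16.1% of all tested genes. In ΔLEO1 cells it called 6, 6 and 1 higher and 7, 8 and 3 lower, beside 15.5% and 12.1%. NFASC, an adhesion molecule of the axon initial segment, fell, with a log2 fold change of -2.77 ± 0.54 (adjusted p = 5.62e-05) in wild-type cells, and ALCAM, an adhesion molecule, with -2.65 ± 0.46 (adjusted p = 7.61e-06) in ΔLEO1 cells. MYL9, a myosin regulatory light chain, fell, with a log2 fold change of -2.596 ± 0.45 (adjusted p = 3.66e-06) in wild-type cells, MICAL2, an actin oxidase, with -2.07 ± 0.46 (adjusted p = 0.000757) in ΔLEO1 cells, and TLL1, a protease of the BMP1 family, with -2.43 and -2.05.

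Between genotypes, 1 of the 20 co-receptors and partners was higher and 4 lower at 10% serum, and 1 higher and 2 lower at 0.1% serum, beside 3.81% and 4.20%, and 3.49% and 3.41%, of all tested genes. The gene scale called 3 higher and 13 lower at 10% serum (17.9% and 21.4% of all tested genes) and 1 and 7 at 0.1% serum (15.1% and 17.3%). Of the 35 cytoskeletal effectors 2 were lower at 10% serum and 1 at 0.1% serum, and the gene scale called 4 higher and 4 lower, and 8 higher and 3 lower. SDC1, a heparan sulfate proteoglycan, was lower at 10% serum (-2.705 ± 0.48, adjusted p = 5.18e-06) and FLRT3, which binds UNC5 receptors and latrophilins, at 0.1% serum (-3.69 ± 0.65, adjusted p = 1.45e-06, 5 to 9 counts in ΔLEO1 against 57 to 111 in wild-type libraries). EVL, an actin-binding protein of the Ena/VASP family, was lower in both (-2.78 ± 0.50, adjusted p = 5.44e-06 and -1.87 ± 0.49, adjusted p = 0.00511). Of the proteases 0 were called on the ERCC scale by edgeR's quasi-likelihood test, 0 at an unadjusted p under 0.05 and 0 by DESeq2, while the gene scale called 2 of 9 lower at 10% serum and 2 higher and 3 lower at 0.1% serum. The difference between serum responses was called for 0 listed genes on the ERCC scale by edgeR's quasi-likelihood test and 0 by DESeq2, with 1 partner in each direction at an unadjusted p under 0.05, while the gene scale called GPC1, a heparan sulfate proteoglycan, and EVL, both as higher values in ΔLEO1 cells (0.88, adjusted p = 0.00815 and 1.07, adjusted p = 0.0472).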

How the data were processed

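RNA-seq libraries were made from 12 samples with a stranded mRNA preparation, with ERCC transcripts added. The authors aligned the reads to GRCh38 (STAR 2.7.10a in the submitters' processing notes) and deposited raw counts per gene from featureCounts 1.5.1. Which annotation release was counted, and with which strand option, is not given in the sources used here. The counts are not normalized. Gene coordinates and lengths came from GENCODE v29 on GRCh38, and RPKM was computed as gene counts scaled to library total and to the length of merged exons.

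Libraries were grouped by their labels. The 5 comparisons (serum in each genotype, genotype in each serum, and their interaction) were fitted over 12 libraries with edgeR 4.0.16 in R 4.3.3 (glmQLFit and glmQLFTest, two-sided). The effective library size was the ERCC total times the TMM factor of the ERCC transcripts. Genes above 1 CPM in at least 3 libraries were tested, p-values were adjusted over all of them by Benjamini-Hochberg, and calls were made at 0.05. SE was taken from the fitted model. Depth was 26240632 to 45315560 counts per library, and a group at 3 or fewer counts in every library was compared as a bound against 3 counts. Tested on simulated counts for the serum comparison in wild-type cells (13027 genes), the fit recovered 79 of 100 genes changed 4-fold and 99 of 100 changed 8-fold, with 4 calls among 12827 unchanged genes. The simulated libraries were independent, with ERCC sizes taken as exact, so none stood apart as the highest-numbered ones do. Genes with few counts were not changed. These rates therefore do not carry over to the real libraries or to members near the floor.

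Alternatives were edgeR's likelihood ratio test, DESeq2 1.42.0 with ERCC size factors, TMM factors of the genes, no filter, each library left out, the highest-numbered library of each group left out or used as a covariate, and, chosen after seeing the data, that library left out with TMM factors of the genes. Named were all members called in a comparison (at most 30 in each), the highest member of each family by RPKM, members at 3 or fewer counts in 1 genotype, and per pathway list the called gene with the largest change in each comparison; members named outside this rule are given for completeness of their family. Another list of pathway genes is not reported here. The members and lists were chosen with earlier results of these data known. Promoter sequences came from RefSeq (GRCh38.p14), with entries for 65 members and none for EFNB3, EPHA10, NRP1, NTN1, NTN3, NTNG2, SEMA3A, SEMA6A, SEMA6B, UNC5B and UNC5D.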

Additional observations from a re-analysis of the deposited data

Results flagged for a closer look

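The response of TENM4 to low serum was called different between genotypes, by a test of the difference itself. The difference, ΔLEO1 minus wild-type, was -4.61 on the log2 scale (SE 1.04, adjusted p = 0.00317, edgeR's quasi-likelihood test), with TENM4 higher in 0.1% serum in 3 of 3 libraries of each genotype. The adjusted p was 0.100 with DESeq2, 0.0370 with TMM factors of the genes, and at most 0.113 when 1 library was left out. Wild-type libraries at 10% serum held only 0 to 3 counts, so the value depends on the prior count of the fit. TENM4 passed the filter through the 0.1% serum libraries alone, where it is high, so these p-values add no separate support to its counts.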

How the results depend on the processing

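With TMM factors of the genes, low serum called 15 members higher in wild-type cells and 18 higher and 3 lower in ΔLEO1 cells, genotype called 25 lower in 10% and 19 lower in 0.1% serum, and the interaction called 4 higher. Without the filter, 9 fell with low serum in ΔLEO1 cells. Without the highest-numbered library of each group, low serum in ΔLEO1 cells called 2 higher and 36 lower, and genotype 11 lower in 10% and 3 higher and 13 lower in 0.1% serum; with that library as a covariate, 10 were lower with low serum in ΔLEO1 cells and 4 lower by genotype in 0.1% serum. DESeq2 called 4 lower by genotype in 0.1% serum and 0 in the interaction. Without those libraries and with TMM factors of the genes, an alternative chosen after seeing the data, low serum called 18 higher in wild-type and 23 in ΔLEO1 cells, genotype 11 higher and 32 lower in 10% and 13 and 27 in 0.1% serum, and the interaction 19 and 8. Leaving out 1 library gave 2 to 3 higher and 7 to 27 lower (low serum, wild-type), 2 to 4 and 2 to 32 (low serum, ΔLEO1), 2 to 7 and 5 to 10 (genotype, 10% serum), 3 to 10 and 3 to 12 (genotype, 0.1% serum), and 0 higher and 0 to 2 lower (interaction). Shares of all tested genes are given above for TMM factors of the genes and for the ERCC scale without the highest-numbered libraries. For the other settings no such share is given, so their counts are not read as particular to the members. EPHA5 reversed between genotypes in 0.1% serum, to -0.011 without the highest-numbered libraries and -0.31 without library 12 (-0.31 to 1.996 over all fits without 1 library), and PLXND1 with low serum in ΔLEO1 cells, to 0.24 without them and with TMM factors of the genes. The cause was not tested. Of the 73 calls on single members, 73 held with the likelihood ratio test, 62 with DESeq2, 51 with TMM factors of the genes, 56 without the filter, 67 without the highest-numbered libraries and 57 with them as a covariate, and 25 held in all 12 fits without 1 library. No paired analysis was possible because the labels number the libraries 1 to 12 across groups and give no shared number that would pair them.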

Other observations

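DOCK2, a guanine nucleotide exchange factor for Rac known from blood cells, starts at -336118 bases from the start of SLIT3 (minus meaning upstream) and was higher in the clone, with log2 fold changes of 4.60 (adjusted p = 2.60e-11) in 10% serum and 5.15 (adjusted p = 5.07e-11) in 0.1% serum by edgeR's quasi-likelihood test. It was named after its values were seen.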
